A study of Rattus norvegicus with 6 samples.

Results

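The genes described here are 8 chemokine receptors, Ccr1, Ccr2, Ccr7, Cxcr2, Cxcr3, Cxcr4, Cxcr6 and Cx3cr1, together with Cx3cl1, known as fractalkine, the ligand of Cx3cr1. They were found by their symbols, and all 9 were present among the 19616 genes of the expression table. All 9 also reached a mean of 0.1 FPKM over the rats, the filter on low values, which left 14864 genes to be tested. FPKM counts the sequenced fragments of a gene per kilobase of transcript and relative to all fragments of the library, so levels can be set side by side between genes.

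Livers of male SD rats were compared between a fibrosis group (FL) and a control group (CL). FL rats received intraperitoneal CCl4, a liver toxin, diluted with the same volume of olive oil, and CL rats received olive oil. Each injection was 2 mL/kg, given on 2 occasions per week for 5 weeks. Whole liver RNA depleted of ribosomal RNA was sequenced in 3 rats of each group, CL5, CL6 and CL7 against FL2, FL5 and FL12, and each rat is a replicate. Values of single rats are given in this order throughout. CL5 and FL5 share a number but are different animals. The age of the rats was not given in the sources used here. Col1a1, the collagen that marks fibrosis, was 2.12, 3.77 and 2.12 FPKM in the CL rats against 17.0, 101 and 73.7 FPKM in the FL rats (log2 fold change 4.24, SE 0.60, adjusted p = 0.00519). Acta2, the smooth muscle actin of myofibroblasts, was 3.85, 2.62 and 2.68 FPKM in the CL rats against 3.87, 17.3 and 9.59 FPKM in the FL rats, and it did not pass the test (log2 fold change 1.50, SE 0.47, adjusted p = 0.0609). FL2 was the lowest FL rat for both genes of the fibrosis model. Alb, Ttr and the other 5 hepatocyte markers were present in every rat, and Alb was the most abundant gene of the table.

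Chemokines are small secreted proteins that steer leukocytes along gradients, and their receptors are coupled to inhibitory G proteins. In injured liver, Ccr2 and its ligand Ccl2 are known for the entry of monocytes, Cxcr2 for that of neutrophils, Cxcr3 and Cxcr6 for that of lymphocytes, and Ccr7 for the traffic of T cells and dendritic cells to lymphoid tissue. Cx3cr1 is carried by monocytes and macrophages, and Cx3cl1 is unusual among chemokines because it is anchored to the membrane of endothelial and epithelial cells until proteases release it.

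A gene was called a differentially expressed gene (DEG) at a Benjamini-Hochberg adjusted p under 0.05 and a change of at least 2-fold in limma. Of the 9 genes, 3 were upregulated DEGs, namely Cxcr4, Cx3cr1 and Cx3cl1, and 0 were downregulated. At an unadjusted p under 0.05 the limma test had 5 of the 9 genes higher in the FL group and 0 lower, against 31.5% and 4.04% of all genes tested. Among all genes tested, 9.29% were upregulated DEGs and 0.935% were downregulated DEGs. In 4 of the 9 genes every FL rat was above every CL rat, against 35.7% of all genes tested. The median log2 fold change of the 9 genes was 0.88, and that of all genes was 0.29. This median shift of all genes became 0.08 with median scaling between rats and -0.04 with quantile normalization, while 8 of the 9 genes kept a positive and Cxcr6 a negative fold change under each of them. The median of the 9 genes fell to 0.67 when the rats were scaled to equal medians and to 0.42 under quantile normalization, where the log2 fold changes of the 6 genes not called were 0.60 for Cxcr2, 0.42 for Ccr2, 0.17 for Ccr1, 0.13 for Ccr7, 0.006 for Cxcr3 and -0.67 for Cxcr6. Upregulated DEGs made up 90.9% of all DEGs without further scaling, 82.0% with median scaling and 66.2% with quantile normalization. The summed level of the 9 genes was 3.58, 3.33 and 2.18 FPKM in the CL rats and 7.24, 7.40 and 10.1 FPKM in the FL rats. In whole liver, more cells of a type and more RNA per cell cannot be told apart, and this holds for every difference given here.

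The fractalkine pair was upregulated on both sides. Cx3cl1, the ligand, was 0.15, 0.21 and 0.15 FPKM in the CL rats against 0.50, 0.87 and 1.98 FPKM in the FL rats. All FL rats were above all CL rats, the CL rats lay close together, and FL12 stood well above the other FL rats. The mean rose from 0.17 ± 0.0346 to 1.12 ± 0.770 FPKM (SD, n = 3), a ratio of means of 6.57, with a log2 fold change of 1.99 (SE 0.45, adjusted p = 0.0226). The log2 fold changes given here are on log2(FPKM + 0.1), which understates the change of genes at such low levels. Cx3cr1, the receptor, was 0.12, 0.49 and 0.16 FPKM in the CL rats and 0.95, 1.23 and 1.43 FPKM in the FL rats. Its FL rats were also all above its CL rats, among which CL6 was the highest. The mean rose from 0.257 ± 0.203 to 1.20 ± 0.241 FPKM (SD, n = 3), a ratio of 4.69, with a log2 fold change of 1.99 (SE 0.40, adjusted p = 0.0151). For both genes the FL rats stood in the same order, with FL2 lowest and FL12 highest. Neither call held in every setting. The adjusted p of Cx3cl1 ranged from 0.00927 to 0.0802 over 14 alternatives, and 8 of them kept the call. It was lost without CL5 (0.0681), CL6 (0.0532), CL7 (0.0802) or FL5 (0.0654), with quantile normalization (0.0746) and with a pseudocount of 1 FPKM, which also brought the change under 2-fold. For Cx3cr1 it ranged from 0.0126 to 0.0614, and 9 of 14 kept the call. It was lost without CL7 (0.0614), FL5 (0.0563) or FL12 (0.0522), with quantile normalization (0.0558) and with a pseudocount of 1 FPKM, again under 2-fold.

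Cxcr4, the receptor of Cxcl12 on leukocytes, had the largest fold change of the 9 genes. It was 0.11, 0.14 and 0.34 FPKM in the CL rats against 1.14, 1.61 and 1.80 FPKM in the FL rats. The lowest FL rat was several times above the highest CL rat, which was CL7. The mean rose from 0.197 ± 0.125 to 1.52 ± 0.340 FPKM (SD, n = 3), a ratio of 7.71, with a log2 fold change of 2.50 (SE 0.35, adjusted p = 0.00503). The call was made in each of the 14 alternatives in which Cxcr4 was tested, with an adjusted p between 0.00483 and 0.0258. With a pseudocount of 1 FPKM the log2 fold change of Cxcr4 fell to 1.07, just above the limit of 2-fold. Its ligand Cxcl12, which stromal and endothelial cells make, was 32.1, 23.1 and 25.9 FPKM in the CL rats and 35.3, 27.8 and 23.8 FPKM in the FL rats. The groups overlapped for Cxcl12, with a log2 fold change of 0.09 (SE 0.18, adjusted p = 0.733). The mean of the ligand was 137 times that of the receptor in the CL group and 19.1 times in the FL group.

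**Figure D1:**
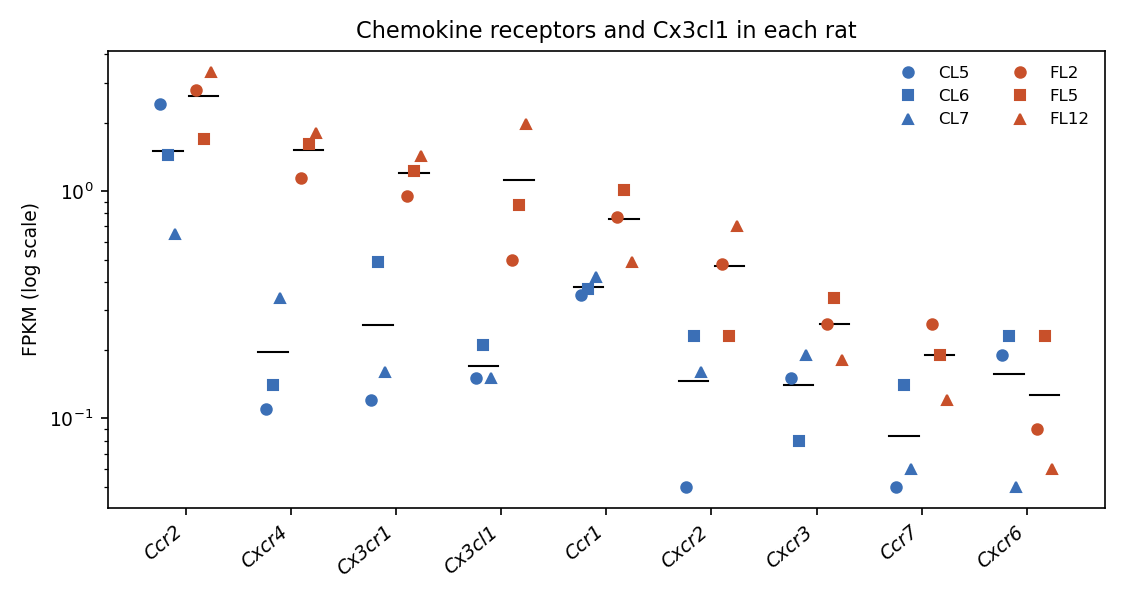
FPKM of the 9 genes in each rat, on a log axis, ordered by the mean of the FL group; points are rats (CL blue, FL orange) and black lines are group means of 3 rats. The groups are apart for Cxcr4, Cx3cr1, Cx3cl1 and Ccr1 and overlap for the other 5 genes, and Ccr2 has the highest mean in both groups.

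Ccr2, the receptor of Ccl2 on monocytes, was the most abundant of the 9 genes in both groups, at 2.41, 1.44 and 0.65 FPKM in the CL rats against 2.79, 1.69 and 3.36 FPKM in the FL rats. CL5 was above FL5, so the groups overlapped, and the means of 1.50 ± 0.882 and 2.61 ± 0.849 FPKM (SD, n = 3) differed by less than the test could call (log2 fold change 0.88, SE 0.44, adjusted p = 0.191). Without CL5 the log2 fold change was 1.28, and without CL7 it was 0.41. Ccl2 was upregulated, from 0.05, 0.37 and 0.26 FPKM to 1.95, 1.05 and 1.27 FPKM (log2 fold change 2.33, SE 0.45, adjusted p = 0.0135), with no overlap. The ligands of Ccr2 on the list, Ccl2, Ccl7 and Ccl12, summed to 0.273 ± 0.204 FPKM for CL and 1.86 ± 0.428 FPKM for FL (SD, n = 3). Their sum was 0.182 times the receptor's mean in the CL group and 0.713 times in the FL group. Ccr1, a receptor of monocytes and neutrophils, was 0.35, 0.37 and 0.42 FPKM in the CL rats and 0.77, 1.01 and 0.49 FPKM in the FL rats. Its groups did not overlap, but FL12 lay just above CL7 and the gene was not called (log2 fold change 0.79, SE 0.30, adjusted p = 0.104).

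Cxcr2, the receptor of neutrophils, was 0.05, 0.23 and 0.16 FPKM in the CL rats against 0.48, 0.23 and 0.70 FPKM in the FL rats. FL5 was equal to CL6, and the fold change was not called (log2 fold change 1.19, SE 0.46, adjusted p = 0.109). Over the rats left out it ranged from 0.87 (without CL5) to 1.54 (without FL5). The neutrophil markers moved in the same direction: all 4 that were tested, S100a8, S100a9, Csf3r and Fcnb, were upregulated DEGs, against 9.29% of all genes. FL5 was the lowest FL rat in each of the 4. The neutrophil list summed to 0.70, 1.20 and 1.29 FPKM in the CL rats and 6.71, 2.63 and 5.49 FPKM in the FL rats, and S100a8 was its most abundant gene. Mpo, Elane and Np4, which mark the granules of immature neutrophils, were listed at 0 in all 3 CL rats and were at most 0.29 FPKM in the FL rats, and Camp was listed at 0 in every rat but CL5. The part of neutrophils in the values of Cxcr2 was not tested. Among the ligands of Cxcr2, Cxcl1 was 5.77, 4.49 and 4.21 FPKM in the CL rats and 34.7, 6.52 and 2.97 FPKM in the FL rats. FL2 alone was far above the control rats and FL12 was below them, and Cxcl1 was not called (log2 fold change 0.87, SE 0.75, adjusted p = 0.432).

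The 3 receptors of lymphocytes were the lowest of the 9 genes in the FL group. Cxcr3, the receptor of Cxcl9, Cxcl10 and Cxcl11, was 0.15, 0.08 and 0.19 FPKM in the CL rats against 0.26, 0.34 and 0.18 FPKM in the FL rats, and FL12 was below CL7 (log2 fold change 0.59, SE 0.38, adjusted p = 0.300). Ccr7 was 0.05, 0.14 and 0.06 FPKM in the CL rats and 0.26, 0.19 and 0.12 FPKM in the FL rats, again with overlap (log2 fold change 0.67, SE 0.42, adjusted p = 0.289). Cxcr6, the receptor of Cxcl16, was 0.19, 0.23 and 0.05 FPKM in the CL rats and 0.09, 0.23 and 0.06 FPKM in the FL rats. The ranges of Cxcr6 nearly coincided, and its fold change was the single negative value among the 9 (log2 fold change -0.17, SE 0.49, adjusted p = 0.825). The ligands of these receptors differed from each other. Cxcl16 was upregulated, from 1.88, 2.86 and 2.71 FPKM to 7.57, 11.2 and 11.5 FPKM (log2 fold change 1.98, SE 0.22, adjusted p = 0.00296). Ccl21, a ligand of Ccr7 made by lymphatic vessels and lymphoid stroma, was upregulated from 0.80, 0.86 and 1.28 FPKM to 17.2, 5.45 and 29.0 FPKM (log2 fold change 3.73, SE 0.53, adjusted p = 0.00531). None of Cxcl9, Cxcl10 and Cxcl11 was called by limma, and 0 of them had an unadjusted p under 0.05. Their sum was 8.80 ± 1.01 FPKM for CL and 8.36 ± 2.81 FPKM for FL (SD, n = 3).

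Ordered by mean level in the CL group, Ccr2 came before Ccr1, Cx3cr1, Cxcr4, Cx3cl1, Cxcr6, Cxcr2, Cxcr3 and Ccr7. The rats of Ccr2 and Ccr1 did not overlap there, while all later neighbours in this order did. In the FL group the order was Ccr2, Cxcr4, Cx3cr1, Cx3cl1, Ccr1, Cxcr2, Cxcr3, Ccr7 and Cxcr6, and all neighbours overlapped. Cxcr4 and Cx3cr1 thus moved ahead of Ccr1, while the mean of Cx3cl1 did so through FL12, with Cx3cl1 below Ccr1 in FL2 and FL5. All 9 genes were low for this tissue: the mean of Ccr2 over the rats stood at the 42.3 percentile of the genes tested, Cxcr4 at 26.7 and Ccr7 at 3.63.

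Leukocyte markers were higher in the FL group as well. All 7 tested genes of the list of leukocyte markers were upregulated DEGs, against 9.29% of all genes. Among the 7 was Ptprc, the surface protein CD45, at 3.19, 3.25 and 3.12 FPKM in the CL rats and 8.12, 10.2 and 8.72 FPKM in the FL rats (log2 fold change 1.46, SE 0.13, adjusted p = 0.00165). The list summed to 30.45, 31.9 and 28.8 FPKM in the CL rats against 77.9, 101 and 87.4 FPKM in the FL rats. Its most abundant gene was Laptm5, and Cd52 was listed at 0 in CL5, CL7 and FL5. Each of the 9 genes was therefore also set against the mean of this list in the same rat, on the log2 scale. An exact two-sided permutation test of 3 rats against 3 cannot go below p = 0.1, so these values are a description. Relative to the leukocyte list, Cxcr4 was higher in the FL group by 1.13 (exact p = 0.1), with no overlap between the groups, and against Ptprc alone by 1.04 (exact p = 0.1). Cx3cr1 was higher by 0.63 (exact p = 0.3) and Cx3cl1 by 0.62 (exact p = 0.4), with overlap. The relative levels of Cxcr6 and Ccr7 differed by -1.54 and -0.70 (exact p = 0.1 for each), and all FL rats were below all CL rats. The differences of Cxcr3 and Ccr1 were -0.78 and -0.58 (exact p = 0.2 for each), that of Ccr2 was -0.49 (exact p = 0.4) and that of Cxcr2 was -0.18 (exact p = 0.7), all with overlap. For Cxcr3 and Ccr1 the overlap depended on the reference and the pseudocount: against Ptprc alone they differed by -0.88 and -0.67, and with Cd52 left out of the list by -0.90 and -0.70 (exact p = 0.1 for each of these), and all FL rats were then below all CL rats. With a pseudocount of 0.01 FPKM in place of 0.1 the groups overlapped for all 9 genes, with Ccr7 at -0.34 (exact p = 0.5), Cxcr6 at -1.76 and Cxcr4 at 1.52 (exact p = 0.2 for both). With a pseudocount of 1 FPKM in place of 0.1 the signs of Cxcr4, Cx3cr1 and Cx3cl1 turned, to -0.09 (exact p = 0.5), -0.34 (exact p = 0.1) and -0.36 (exact p = 0.4), so that all FL rats were below all CL rats for Cx3cr1. They were also below for Cxcr6 at -1.20, Ccr7 at -1.02, Cxcr3 at -1.01, Ccr1 at -0.82 and Cxcr2 at -0.81 (exact p = 0.1 for each), while Ccr2 was at -0.59 (exact p = 0.3). Leaving out a single rat moved several of these values. Cx3cl1 went from 0.16 (without FL12) to 0.99 (without FL2) and Cx3cr1 from 0.38 (without CL5) to 0.97 (without CL6). Ccr2 went from -0.90 (without CL7) to -0.05 (without CL5), and was -0.20 without FL5. Ccr1 was -0.31 without FL12, and Cxcr2 went from -0.46 (without CL5) to 0.19 (without FL5). The part of leukocytes in the changes of the 9 genes was not tested beyond this.

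**Figure D2:**
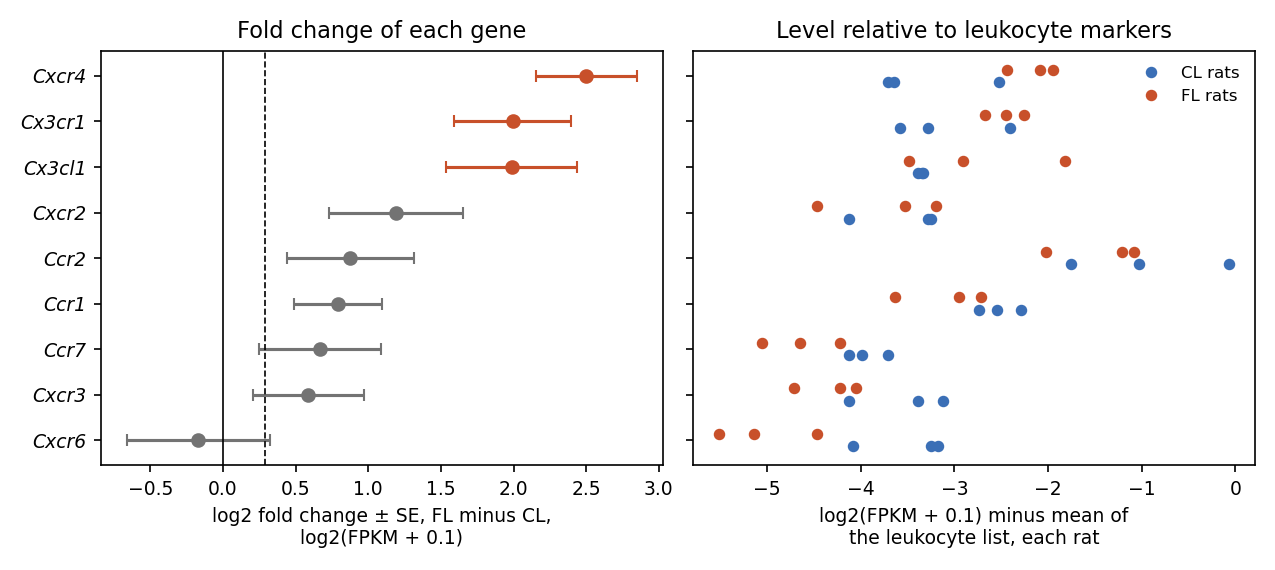
Left, log2 fold change of each gene on log2(FPKM + 0.1) with its standard error (3 rats per group; orange, upregulated DEGs; grey, not called; dashed line, the median of all genes, 0.29). Right, log2 level of each gene minus the mean of the leukocyte markers in the same rat; Cxcr4 lies higher in all FL rats than in all CL rats, while Cxcr6 and Ccr7 lie lower.

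Markers of single cell types differed in how many were called, and the counts given here stand against 9.29% of all genes called as upregulated and 31.5% higher at an unadjusted p under 0.05. Of the monocyte and macrophage markers, 5 of the 8 tested were upregulated DEGs and 7 were higher at an unadjusted p under 0.05. The list summed to 47.4, 52.4 and 47.2 FPKM in the CL rats and 120, 148 and 113 FPKM in the FL rats, with Cd68 as the most abundant gene. Cd14 alone had a negative fold change, with overlap between the groups (log2 fold change -0.70, SE 0.39, adjusted p = 0.237). Of the Kupffer cell markers 1 of 6 was called, Marco, while 5 were higher at an unadjusted p under 0.05, and the sums were 118, 108 and 118 FPKM in the CL rats and 250.5, 219 and 114 FPKM in the FL rats. Clec4f, which marks resident Kupffer cells and was the most abundant of these, overlapped between the groups (log2 fold change -0.02, SE 0.31, adjusted p = 0.974). All 6 Kupffer cell markers and 6 of the 8 monocyte and macrophage markers were lowest in FL12 among the FL rats, where Cx3cr1 and Cxcr4 were highest, and all 7 leukocyte markers were highest in FL5. T cell markers had 3 of 8 called, Cd2, Cd4 and Cd8b, and 5 with an unadjusted p under 0.05. Cd3d, Cd3e and Cd3g were not called (adjusted p = 0.783, 0.440 and 0.131). The sums were 11.65, 10.3 and 10.6 FPKM in the CL rats and 23.4, 30.8 and 24.9 FPKM in the FL rats. Most of these sums was Cd4, the most abundant, with means of 8.81 FPKM for CL and 21.1 FPKM for FL. Cd4 is also expressed by rat macrophages, and Trat1, a marker of T cells, was listed at 0 in FL2 and FL12. Of the NK cell markers 0 of 5 were called by limma and 0 had an unadjusted p under 0.05, and their sum was 2.15 ± 0.351 FPKM for CL and 2.41 ± 0.347 FPKM for FL (SD, n = 3), with Prf1 the most abundant. B cell markers had 0 of 3 called, 1 of them with an unadjusted p under 0.05 in limma, and dendritic cell markers had 1 of 5 called, Cd83, and 2 with an unadjusted p under 0.05. The sums of B cell markers were 1.26 ± 0.142 and 2.35 ± 0.742 FPKM, and those of dendritic cell markers 2.45 ± 0.386 and 4.38 ± 0.317 FPKM in the CL and FL groups (SD, n = 3). Blk and Cd83 were the most abundant genes of these lists. Of the B cell list, Ms4a1 was listed at 0 in CL5 and Pax5 in FL12. Ccl22 of the dendritic cell list was listed at 0 in FL2 and FL5, and Ms4a7 of the macrophage list in CL7. Their part in the values of the receptors was not tested.

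Endothelium and bile duct epithelium can carry Cx3cl1. The counts of this paragraph stand against the same shares of all genes, 9.29% and 31.5%. Of the endothelial markers 1 of 6 was called, Vwf, and 3 were higher at an unadjusted p under 0.05, of which Stab2 also passed the adjusted p but not the limit of 2-fold (log2 fold change 0.75, SE 0.15, adjusted p = 0.0143). The list summed to 73.7, 72.2 and 64.8 FPKM in the CL rats and 88.9, 75.5 and 83.4 FPKM in the FL rats, with Kdr the most abundant. Of the 5 cholangiocyte markers, which label bile duct epithelium, 0 were called and 1 had an unadjusted p under 0.05 in limma. Their sums were 5.38, 7.75 and 5.58 FPKM in the CL rats against 5.38, 8.06 and 11.3 FPKM in the FL rats, with Epcam the most abundant. All 5 of them were highest in FL12 among the FL rats, the rat with the highest Cx3cl1. Stellate cell and myofibroblast markers had 4 of 7 called and 6 with an unadjusted p under 0.05, with Col3a1 the most abundant and sums of 74.5, 78.3 and 71.7 FPKM in the CL rats and 188, 499 and 461 FPKM in the FL rats. All 7 of these were lowest in FL2 among the FL rats, as were Cx3cl1, Cx3cr1 and Cxcr4. The part of these cells in the result was not tested. For platelets 1 of 2 markers was called, Pf4, with Itga2b the most abundant, Ppbp listed at 0 in 4 rats, Gp9 listed at 0 in CL5 and sums of 3.20 ± 0.806 and 6.45 ± 1.32 FPKM in the CL and FL groups (SD, n = 3). Erythroid markers had 0 of 4 called, with Hbb the most abundant and sums of 117 ± 33.7 and 72.3 ± 43.0 FPKM. Of the 4, 1 had an unadjusted p under 0.05 in limma, Hbb, which was lower in the FL group (log2 fold change -0.88). This count stands against 4.04% of all genes lower at an unadjusted p under 0.05. Hepatocyte markers also had 0 of 7 called and 1, Apoa1, higher at an unadjusted p under 0.05 in limma. They summed to 50067 ± 1202 and 43063 ± 1115 FPKM. All FL rats were below all CL rats for Alb, Ttr and Hnf4a, 3 of the 7 (711 of 14864 genes tested). For 2 they were above (35.7% of all genes tested). Alb was 33392, 31431 and 31992 FPKM in the CL rats and 24149, 25052 and 25209 FPKM in the FL rats. Its SE of 0.98 exceeded the size of its log2 fold change, -0.38, although each group lay close together. The missing calls therefore do not show that hepatocyte markers were unchanged.

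Among the other chemokine receptors, 14 of 15 genes were in the table, 8 were tested and 2 were upregulated DEGs, with 0 downregulated. The shares of all genes were 9.29% and 0.935%. At an unadjusted p under 0.05, 3 of the 8 were higher, against 31.5% of all genes. These counts include Cmklr1, a macrophage receptor of chemerin rather than of chemokines and the most abundant gene of this list. Cmklr1 rose from 1.13, 1.78 and 2.13 FPKM to 5.12, 5.37 and 3.44 FPKM (log2 fold change 1.43, SE 0.26, adjusted p = 0.0115). Reads that related receptors share were left out where they had no unique place, so levels of receptors with close relatives are less certain than those of the others. Cxcr5, a receptor of B cells and follicular T cells, was 0.07, 0.14 and 0.20 FPKM in the CL rats and 0.38, 0.61 and 0.53 FPKM in the FL rats (log2 fold change 1.38, SE 0.36, adjusted p = 0.0344). For both of these receptors the groups did not overlap. Ackr3, the scavenging receptor that shares Cxcl12 with Cxcr4, was just under the limit of 2-fold, at 0.75, 0.71 and 0.63 FPKM in the CL rats and 1.47, 1.29 and 1.73 FPKM in the FL rats (log2 fold change 0.997, SE 0.21, adjusted p = 0.0161). Cxcr1, the neutrophil receptor beside Cxcr2, was listed at 0 in 5 rats. The median log2 fold change of the tested receptors on this list was 0.88, against 0.29 for all genes.

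Of the 22 ligands, 17 were tested and 4 were upregulated DEGs, Ccl2, Ccl21, Cxcl16 and Pf4, with 0 downregulated. The shares of all genes were 9.29% and 0.935%. At an unadjusted p under 0.05, 5 of the 17 were higher, against 31.5% of all genes. Pf4, a chemokine of platelets that was also on the platelet list, rose from 1.19, 0.76 and 0.92 FPKM to 2.09, 3.99 and 4.49 FPKM (log2 fold change 1.73, SE 0.30, adjusted p = 0.0101). Pf4 was not set against any of the 8 receptors here. The most abundant ligand, Ccl9, a ligand of Ccr1, was 161, 174 and 198 FPKM in the CL rats and 227, 184 and 217 FPKM in the FL rats. FL5 lay below CL7, and Ccl9 was not called (log2 fold change 0.23, SE 0.15, adjusted p = 0.313). Ccl12 was listed at 0 in all CL rats and at 0.10, 0.18 and 0.20 FPKM in the FL rats, and was too low to be tested. The median log2 fold change of the tested ligands was 0.51, against 0.29 for all genes. The list also held Ccl4 and Ccl24, which act mainly on receptors outside the 8, and neither was called.

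**Figure D3:**
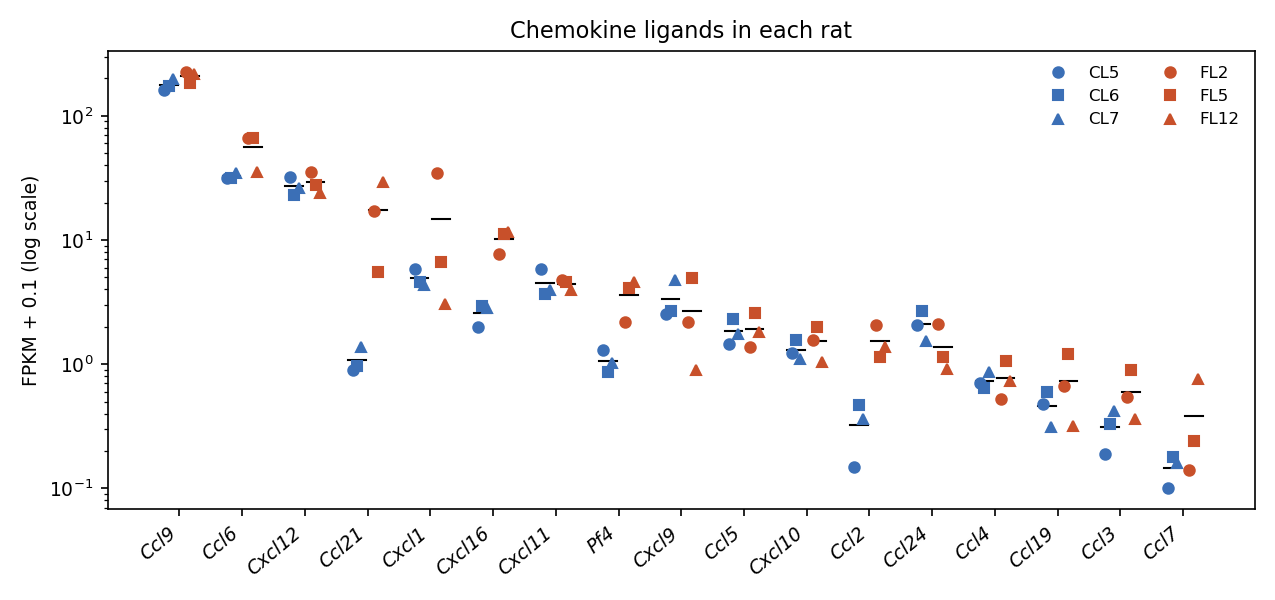
FPKM + 0.1 of the 17 tested ligands in each rat, on a log axis, ordered by the mean of the FL group; points are rats (CL blue, FL orange) and black lines are group means of 3 rats. Ccl9 is the most abundant, Ccl21, Cxcl16, Pf4, Ccl2 and Ccl6 are apart between the groups (Ccl6 narrowly, and not called), and FL2 stands alone for Cxcl1.

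Genes that act behind the receptors also held upregulated DEGs. Of 31 genes of receptor signalling, all tested, 14 were upregulated DEGs and 0 were downregulated, against 9.29% and 0.935% of all genes. At an unadjusted p under 0.05, 22 of the 31 were higher, against 31.5% of all genes. The median log2 fold change of the 31 genes was 0.83, against 0.29 for all genes. The 14 DEGs were Gnai2, an inhibitory G protein subunit, Arrb2 and Grk3, which switch receptors off, and Rgs1, Rgs2, Rgs18 and Rgs19, which shorten G protein signals. Pik3r5, Prex1, Plcb2, Rac2, Dock2, Elmo1 and Vav1, which carry the signal to lipid messengers and the actin skeleton, made up the rest. Rgs1 had the largest fold change of them, from 0.07, 0.05 and 0.21 FPKM to 0.29, 1.46 and 1.46 FPKM (log2 fold change 2.30, SE 0.59, adjusted p = 0.0334). Rgs1, Rgs2, Rgs18, Rgs19, Gnai2 and Arrb2 lost the call with median scaling and with quantile normalization. Quantile normalization also ended the calls of Dock2, Elmo1, Grk3, Plcb2, Prex1 and Vav1, while Pik3r5 and Rac2 were still called. Pik3r5, a subunit of the leukocyte PI3-kinase gamma, rose from 0.14, 0.33 and 0.27 FPKM to 1.03, 1.21 and 1.36 FPKM (log2 fold change 1.94, SE 0.30, adjusted p = 0.0066). The part of leukocytes in these calls was not tested. Rhoa, which all cells express, was the most abundant gene of the list, at 62.1, 61.6 and 60.6 FPKM in the CL rats and 63.4, 76.0 and 73.2 FPKM in the FL rats, and was not called (log2 fold change 0.20, SE 0.12, adjusted p = 0.256).

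Of the 4 genes around the release of Cx3cl1 and Cxcl16 from the membrane, 2 were upregulated DEGs, against 9.29% of all genes. In all 4 every FL rat was above every CL rat, against 35.7% of all genes. Rhbdf2, the partner that brings Adam17 to the cell surface, rose from 0.53, 0.78 and 0.96 FPKM to 2.76, 2.21 and 2.41 FPKM (log2 fold change 1.61, SE 0.24, adjusted p = 0.00576). Timp3, an inhibitor of these proteases and not a protease, rose from 2.39, 4.15 and 3.07 FPKM to 5.30, 6.29 and 11.2 FPKM (log2 fold change 1.18, SE 0.30, adjusted p = 0.0324). The proteases themselves passed the adjusted p but not the limit of 2-fold. Adam10, the most abundant, had a log2 fold change of 0.77 (SE 0.13, adjusted p = 0.00985), and Adam17 had 0.63 (SE 0.12, adjusted p = 0.0112). Over the 4 pathway lists together, 22 of 60 tested genes were upregulated DEGs and 0 were downregulated, against 9.29% and 0.935% of all genes, and 34 of 60 were higher at an unadjusted p under 0.05, against 31.5% of all genes. With a pseudocount of 1 FPKM 7 were called. With median scaling 14 were called and with quantile normalization 6, all of these among the 22. The 6 were Ccl21, Cxcl16, Pf4, Pik3r5, Rac2 and Rhbdf2, and all 22 kept a positive fold change under both scalings. Cxcr5 and Timp3 were also among those that lost the call under each of them.

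By the chromosomes of the table, 13 of the 22 receptor genes examined, Cmklr1 included in the 22, lie on chromosome 8. Among the 13 are Ccr1, Ccr2, Cxcr6 and Cx3cr1. Of the 13, 9 were tested and 2 were called, Cx3cr1 and Cxcr5, against 9.29% of all genes called as upregulated. All 9 genes were matched by symbol in the gene order of RefSeq (assembly GRCr8). There, Ccr9, Cxcr6, Xcr1, Ccr1, Ccr3 and Ccr2 follow each other with at most 2 annotated genes between neighbours. Ccr1, Ccr2 and Cxcr6, the members in this row of receptors, were not called. Cx3cr1 lies elsewhere on the chromosome, next to Ccr8.

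The promoters of the 3 upregulated genes are shown because these were the members called. Whether the 3 genes are regulated jointly was not tested. They are the 250 bases before the RefSeq gene start in GRCr8, on the strand of the gene, which is the minus strand for each: chr13:42634289-42634538 for Cxcr4, chr8:128677067-128677316 for Cx3cr1 and chr19:10242821-10243070 for Cx3cl1. Promoters of 8 of the 9 genes were found in the RefSeq set, all except that of Ccr7. Capitals mark matches, on either strand, to TATAAA (the core of a TATA box), GGGCGG (the core of a GC box) and GAGGAA (the core bound by PU.1, a factor of myeloid cells).
Cxcr4: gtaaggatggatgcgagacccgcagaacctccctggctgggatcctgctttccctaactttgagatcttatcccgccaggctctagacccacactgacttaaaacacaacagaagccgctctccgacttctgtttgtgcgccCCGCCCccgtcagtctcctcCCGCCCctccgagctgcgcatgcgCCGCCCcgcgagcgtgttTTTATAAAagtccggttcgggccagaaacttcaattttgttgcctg
Cx3cr1: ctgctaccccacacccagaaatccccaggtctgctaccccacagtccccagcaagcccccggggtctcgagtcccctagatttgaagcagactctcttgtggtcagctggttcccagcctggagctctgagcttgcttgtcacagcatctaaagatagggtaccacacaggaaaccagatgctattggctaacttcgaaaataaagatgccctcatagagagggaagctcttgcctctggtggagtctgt
Cx3cl1: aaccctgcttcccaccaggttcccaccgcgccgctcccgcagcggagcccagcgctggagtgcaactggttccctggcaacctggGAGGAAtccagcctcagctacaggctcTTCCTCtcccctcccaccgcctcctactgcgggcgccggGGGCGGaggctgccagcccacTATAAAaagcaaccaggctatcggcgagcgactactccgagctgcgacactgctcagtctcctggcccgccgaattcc
TATAAA was found in 2 of the 8 promoters, those of Cxcr4 and Cx3cl1, and in 12.9% of 33469 RefSeq promoters of this length. In Cxcr4 it begins 44 bases before the start, where a match on the other strand overlaps it, and in Cx3cl1 it begins 78 bases before the start. GGGCGG was likewise present in these 2 promoters, with 3 matches in Cxcr4 and 1 in Cx3cl1, against 30.5% of all promoters. GAGGAA was present in 3, those of Ccr1, Cxcr6 and Cx3cl1, against 23.3% of all. The window of Cx3cr1 held none of these motifs. The share of G and C was 57.6% in Cxcr4, 54% in Cx3cr1 and 66.4% in Cx3cl1, with a median of 51.2% over all promoters. These matches are descriptions of the sequence, not sites shown to be bound.

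The genes most like Cx3cr1 and Cx3cl1 over the 6 rats were sought among the 10535 genes whose mean reached 1 FPKM. For Cx3cr1 they were Adrbk1, the receptor kinase Grk2 (Pearson's r = 0.995), Zfp865 (r = 0.995) and Kctd5 (r = 0.993). For Cx3cl1 they were Kank2 (r = 0.998), Nup153 (r = 0.998) and Snx19 (r = 0.997). The 6 rats share the difference between the groups, so such values are a description and carry no p. Kank2 was 4.54, 4.78 and 4.63 FPKM in the CL rats and 7.10, 9.31 and 13.4 FPKM in the FL rats, with the FL rats in the order of Cx3cl1.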

How the data were processed

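Liver RNA of 3 CL and 3 FL rats was analysed from the FPKM values deposited by the authors, given to 2 decimals. The authors removed adapters and low-quality bases with the FASTX-Toolkit, aligned reads with TopHat2 and used uniquely placed reads for FPKM. Their notes name GRCh38, a human build, although the gene identifiers are of rat, and the annotation release and the use of strand for these gene values were not given in the sources used here. For lncRNAs, the authors left antisense reads out. Whether overlapping and antisense genes are kept apart in these values is therefore open. Depth is not recorded in FPKM. Steps between low values of U6 genes put it, relative to CL5, at 0.651 and 0.833 in CL6 and CL7 and at 0.672, 0.741 and 0.674 in FL2, FL5 and FL12. From 68.4 to 82.1% of the low U6 values lay within 5% of a whole step. Between rats, at most 2.87% of values above 0 were identical. A further 2 columns of rats without a label were not used.

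The edgeR test of the authors needs counts, so limma 3.58.1 (R 4.3.3, with trend) was fitted to log2(FPKM + 0.1) over the 14864 genes whose mean reached 0.1 FPKM, two-sided, with Benjamini-Hochberg adjustment over all of them, and was tested on simulated data. Motifs and tables were made with Python 3.11.15 and pandas 2.3.3. Alternatives were pseudocounts of 1 and 0.01, no filter, a mean of at least 1 FPKM, median scaling, quantile normalization, a robust prior or no trend in limma, no fold limit and leaving out each rat. The members and the 18 lists, 4 of the pathway and 14 of cell markers, were chosen with earlier results of these data known. Pf4 and Ppbp were on the ligand and platelet lists, and Xcr1 on the receptor and dendritic cell lists. Ackr1, Ltf, Klrb1a and Pecam1 of the lists were not analysed here, and 3 further genes of the lists, taken out after their values were known but not because of them, are not reported here. Genes named were the members, all called pathway genes, the most abundant gene of each list, markers listed at 0, Col1a1 and Acta2, and the 3 genes most like Cx3cr1 and Cx3cl1. Others were chosen after their values were seen.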

Additional observations from a re-analysis of the deposited data

How the results depend on the processing

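Of 118 fold changes of single members under the alternatives, 105 kept their direction and their side of the threshold, 11 lost the call and 2 turned in sign. The number of upregulated members, 3, became 1 with a pseudocount of 1 FPKM, 1 with quantile normalization and 0 with a mean of at least 1 FPKM, where 1 member was left to test. Leaving out each rat gave 1 (without CL7, and also without FL5) to 3 (without FL2), and no setting gave a downregulated member. With a pseudocount of 1 the log2 fold change was 0.80 for Cx3cl1, 0.82 for Cx3cr1 and 1.07 for Cxcr4. Fewer members passed the higher minimum by its construction. The cause of the other changes was not tested.

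The number of upregulated pathway genes, 22, became 7 with a pseudocount of 1, 14 with median scaling, 6 with quantile normalization and 31 without a fold limit. Leaving out each rat gave 16 (without CL7) to 25 (without FL2), and 0 to 2 downregulated ones (2 without FL2). The log2 fold change of Cxcr6 turned to 0.0483 without CL6 and 0.0431 without FL12, in a range from -0.52 over the rats left out. Relative to the leukocyte list, Cxcr2 turned to 0.20 with a pseudocount of 0.01 and ranged from -0.46 to 0.19 (without FL5) over the rats left out, and with a pseudocount of 1 Cxcr4, Cx3cr1 and Cx3cl1 turned to -0.0899, -0.342 and -0.363, with Cx3cr1, Ccr1, Cxcr2 and Cxcr3 then lower in all FL rats than in all CL rats (exact p = 0.1 for each). The cause was not tested. Leaving Cd52 out of the list, chosen after seeing the data, turned no sign but ended the overlap of Ccr1 and Cxcr3 (exact p = 0.1 for each), as did Ptprc alone. With a pseudocount of 0.01 Cxcr4, Cxcr6 and Ccr7 overlapped between the groups. No paired analysis was possible because the groups share a single replicate number, which belongs to different rats. With 3 rats per group and most members under 1 FPKM, small differences were not detectable.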
